A study of Mus musculus with 6 samples.

Results

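The enzymes that write and erase DNA methylation, with the genes whose somatic mutation most often drives clonal haematopoiesis, were examined as a group of 10 genes in sorted mouse haematopoietic stem cells (HSCs): Dnmt1, Dnmt3a, Dnmt3b, Tet1, Tet2, Tet3, Asxl1, Asxl2, Idh1 and Idh2. The members were taken by gene name from the deposited tables, where all 10 of 10 were found among 35275 genes. All 10 were also in the table of read counts, which holds 18368 genes, and all 10 were among the 14443 genes that passed the filter on low counts. RNA came from about 2000 sorted bone marrow HSCs of adult mice per library. The wild-type group had 3 libraries, of genotype Ramp1+/+, and the mutant group 3, labelled Ramp1 Mut with the genotype written Ramp-/-. Ramp1 encodes a subunit of the receptor for CGRP, a peptide released by pain-sensing nerves. The labels give no strain, sex or description of the allele, and leave unsaid whether each library had its own animal. The p-values therefore speak only of variation among the 6 libraries, which may be technical.

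Methylation of cytosine at CG dinucleotides (CpG) is copied onto new DNA strands by Dnmt1 and laid down anew by Dnmt3a and Dnmt3b. The Tet enzymes oxidise the methyl group in a reaction that consumes 2-oxoglutarate, which Idh1 makes in the cytosol and Idh2 in mitochondria. Asxl proteins are cofactors of Bap1, an enzyme that removes ubiquitin from histone H2A. In human blood, DNMT3A, TET2 and ASXL1 are the genes most often mutated in ageing stem cell clones, and mutant IDH enzymes make 2-hydroxyglutarate, which inhibits Tet enzymes. No methylation was measured here: the data are transcript levels.

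Sequences upstream of 2 members, Dnmt1 and Idh2, are shown because these genes varied together across the libraries, with a Pearson's r of 0.792 over 6 libraries. That r does not single out the pair, since Tet1 with Asxl1 had 0.841. The relation of each to the S phase genes is described below, where that of Idh2 passed no adjustment. Each sequence is the strand of the gene, 5′ to 3′, ending just before an annotated RefSeq start (Dnmt1) or before the annotated UTR (Idh2), from build GRCm38.p6, and capitals mark each CpG. The Dnmt1 stretch belongs to the second of its 3 annotated starts and begins 6659 bases inside the gene as the authors bounded it. It lies at chr9:20952980-20953229, minus strand, 250 bases with 7 CpGs, and the Idh2 stretch at chr7:80115393-80115600, minus strand, 208 bases with 14 CpGs.
Dnmt1: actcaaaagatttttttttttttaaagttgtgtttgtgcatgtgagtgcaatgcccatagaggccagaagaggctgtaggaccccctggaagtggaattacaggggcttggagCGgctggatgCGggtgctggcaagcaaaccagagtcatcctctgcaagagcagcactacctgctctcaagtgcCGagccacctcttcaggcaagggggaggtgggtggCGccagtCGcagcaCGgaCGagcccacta
Idh2: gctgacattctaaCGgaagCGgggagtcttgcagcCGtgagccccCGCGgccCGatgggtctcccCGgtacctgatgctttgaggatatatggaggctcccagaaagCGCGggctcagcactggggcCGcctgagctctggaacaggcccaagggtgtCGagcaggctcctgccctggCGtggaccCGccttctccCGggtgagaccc
RefSeq lists 3 starts for Dnmt1, and which of them the HSCs used was not measured. The 250 bases before each start held 2, 7 and 26 CpGs for Dnmt1, in the order of transcription, and 51 for Tet2, where the median over 32536 upstream windows of mouse genes was 6. The Tet2 window had more CpGs than 99.9% of those windows. The letters bound by E2F, the factors that switch on S phase genes, were searched as TTTCCCGC, TTTCGCGC, TTTGCCGC and TTTGGCGC on both strands, motifs chosen after the expression values were seen. TTTCGCGC was found once, at position -219 from the third Dnmt1 start, in a stretch annotated as UTR that is not printed, and 0.258% of all windows held it. The other windows of the 10 members held none of these letters, and 1.87% of all windows held at least 1 of the 4 motifs. A match of letters is not evidence of binding.

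The libraries held 22796771 to 26734561 counted reads, and members had 600 to 14675 reads each per library. Ramp1 was measured at 88.3 to 91.4 FPKM (fragments counted per gene, scaled by gene length and library size) in wild type and 1.35 to 3.53 FPKM in mutant libraries. HSC genes were detected in all libraries at a wide range of levels. Means were 378 FPKM for Kit, 232 for Ly6a, 61.3 for Procr and 42.1 for Mecom, but 16.9 for Fgd5, 11.1 for Tal1 and 1.68 for Hoxb5. Pax5, Cd8a and Ncr1, which mark B, T and NK cells, were listed at 0 throughout. Other lymphoid markers were present: Cd79b at 31.8 to 47.1 FPKM, Nkg7 at 28.2 to 62.2 FPKM, Klrb1c at 2.74 to 8.60 FPKM and Cd79a at 0.135 to 2.39 FPKM. Cd3e and Cd3g were above 0 in mutant replicates 2 and 3 only, at most 0.878 FPKM. Cd3d was highest in wild-type replicate 1, at 0.388 FPKM. It measured 0.283 and 0.0609 FPKM in mutant replicates 2 and 3 and was listed at 0 in the other libraries. Neutrophil markers were not absent: all 11 of 11 had higher fitted values in the mutant, none past the threshold, where 49.9% of all genes tested were lower. Their summed level ran from 31.5 FPKM in wild-type replicate 1 to 829 FPKM in wild type, and from 182 to 1152 FPKM in mutant libraries. The 11 markers largely moved together between libraries and are not separate observations. Erythroid markers summed to 10.5 to 55.2 FPKM in wild type and 53.2 to 209 FPKM in mutant libraries. In mutant replicate 1 the globin genes Hba-a1, Hbb-bt and Hbb-bs measured 61.0, 56.6 and 55.9 FPKM. Of the 9 erythroid markers, 7 were higher in fitted value and 2 lower, Klf1 at a log2 fold change of -0.62 (SE 0.47) and Epor at -0.15 (SE 0.26). None passed the threshold. In replicate 1 of each genotype, 6527 and 6137 reads came from Y-linked genes, against at most 2 in the other libraries.

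No member passed the test between genotypes. In the edgeR quasi-likelihood fit of all 14443 genes, 0 of 10 members had an adjusted p under 0.05, where 0.0208% of all genes did, and 0 of 10 had an unadjusted p under 0.05, where 3.99% did. DESeq2, limma-voom and limma on FPKM also called 0 members. Fitted values were lower in the mutant for 8 members and higher for 2, with a median log2 fold change of -0.10, where the median of all genes tested was 0.00. The extremes were -0.29 for Tet2 and 0.15 for Asxl2. The 95% intervals of the fold change reached from 0.582 to 1.14 for Tet2 and from 0.613 to 1.29 for Tet1, the widest, and from 0.783 to 1.04 for Idh2, the narrowest. A fall of the mutant level to below 0.582 of wild type, or a rise above 1.35 times wild type (the upper limit for Asxl2), lay outside the interval of every member. Changes inside a gene's own interval cannot be told from none with these libraries. The authors' deposited table gives the same picture for these genes, with log2 fold changes from -0.30 for Tet2 to 0.14 for Asxl2 and an adjusted p of 0.99977 for each; it rests on the same reads.

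**Figure D1:**
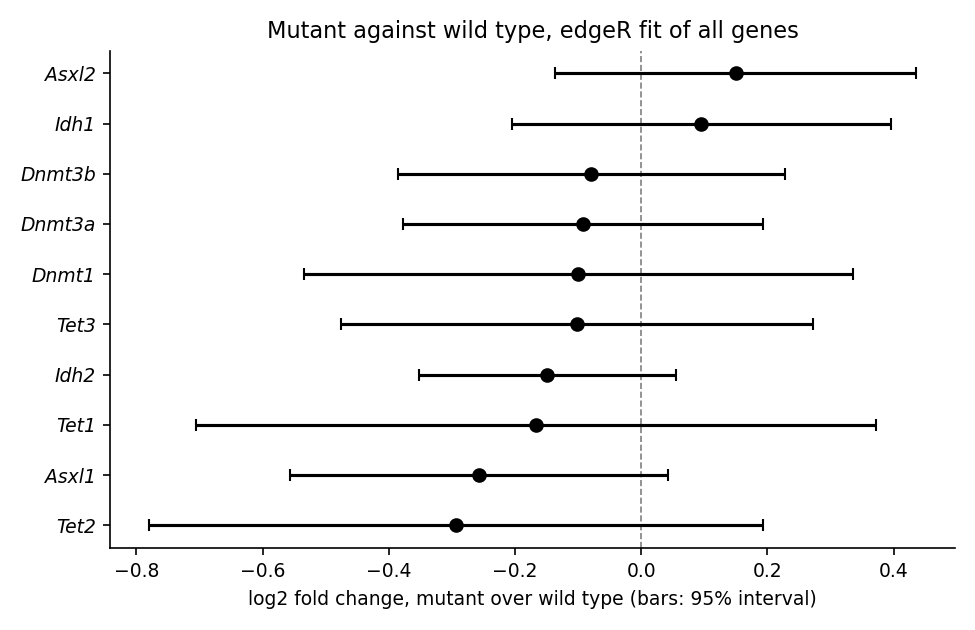
Log2 fold change of each of the 10 genes, mutant over wild type, from the edgeR fit of all genes (points) with its 95% interval (bars), 3 libraries per genotype. All 10 intervals cross 0, with Tet2 lowest at -0.29 and Asxl2 highest at 0.15.

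The maintenance methyltransferase Dnmt1 (ENSMUSG00000004099, mm10 chromosome 9, 20907206 to 20959888, minus strand) was the most abundant of its family. It measured 80.8, 90.3 and 74.8 FPKM in wild-type replicates 1, 2 and 3, and 65.1, 63.6 and 101 FPKM in mutant replicates 1, 2 and 3. Mutant replicates 1 and 2 lay below all wild-type libraries and mutant replicate 3 above them, so the groups overlapped and the mutant spread was the wider. Wild type averaged 82.0 ± 7.85 FPKM and the mutant 76.4 ± 21.0 FPKM (SD over 3 libraries each). The fitted log2 fold change was -0.10 with an SE of 0.19 (edgeR adjusted p = 0.999). The direction was not stable: without mutant replicate 3 the log2 fold change was -0.36 (edgeR unadjusted p = 0.0179, adjusted p = 0.577), and without mutant replicate 1 or 2 it was 0.02.

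The libraries fell in the same order for Dnmt1 as for the S phase genes. The median of 24 S phase genes, such as Mcm2, Pcna and Rrm2 and without Dnmt1 itself, lay at 0.10, 0.26 and -0.03 from its mean over all libraries in wild-type replicates 1, 2 and 3 and at -0.42, -0.29 and 0.40 in the mutant ones, on the log2 scale of counts adjusted for library size (CPM). Dnmt1 lay at 0.04, 0.24 and -0.08 in wild type and at -0.29, -0.28 and 0.38 in the mutant on the same scale. Pearson's r over the 6 libraries was 0.982 (exact permutation p = 0.00417) and Spearman's rho was 1 (exact permutation p = 0.00278, the smallest that 6 libraries allow). Relations of the 10 members were computed to the S phase and the neutrophil medians, 20 in all. Adjusted over these 20, the exact permutation p for Dnmt1 was 0.0833 for r and 0.0556 for rho, short of the threshold of 0.05; over the 10 S phase relations alone it was 0.0417 and 0.0278. Mutant replicates 1 and 2 differed by only 0.01 in Dnmt1, and they change places on the FPKM scale. Without mutant replicates 1 and 3, the libraries farthest from the median of the S phase value, r was 0.990 over 4. The relation was tested after the values were seen. Over the 4 libraries without Y-linked reads r was 0.997, and the 2 with such reads are too few for a value.

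Of the remaining members, none had a relation to the S phase median that passed an adjustment over 10 or 20 relations. The adjusted values that follow are over the 10. Idh2 had an r of 0.878 (exact permutation p = 0.025, adjusted 0.102; rho 0.829) and Idh1 an r of -0.839 (exact permutation p = 0.0306, adjusted 0.102; rho -0.771). Asxl2 had an r of -0.725 and a rho of -0.943 (exact permutation p of rho 0.0167, adjusted 0.0833). Without the same 2 libraries r was 0.974 for Idh2, -0.565 for Idh1 and -0.914 for Asxl2. Dnmt3b (r 0.219), Tet2 (0.03), Tet3 (-0.03) and Asxl1 (-0.194) had r nearer 0, and Dnmt3a and Tet1 had r of -0.532 and -0.530. For several of these 6 genes r depended on the outer libraries: without the same 2 it was 0.657 for Dnmt3a, -0.699 for Tet3, 0.331 for Asxl1, -0.260 for Tet1, 0.178 for Dnmt3b and 0.122 for Tet2.

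**Figure D2:**
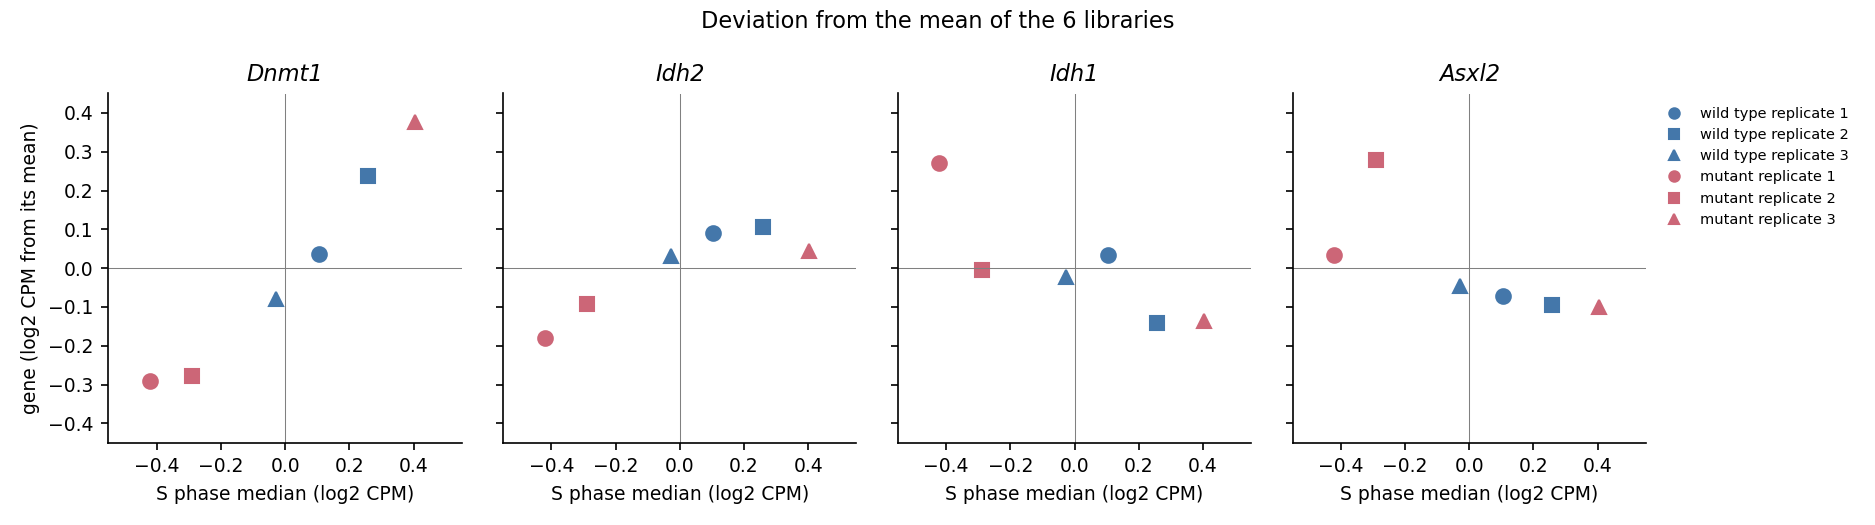
Deviation of Dnmt1, Idh2, Idh1 and Asxl2 from their mean over the 6 libraries (y axis, log2 CPM) against that of the median of 24 S phase genes (x axis, log2 CPM), 1 point per library. Dnmt1 rises with the S phase median across both genotypes, from -0.29 in mutant replicate 1 to 0.38 in mutant replicate 3.

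The de novo enzymes differed in level more than between genotypes. Dnmt3b (ENSMUSG00000027478, chromosome 2, 153649450 to 153687730, plus strand) measured 45.4, 32.1 and 38.5 FPKM in wild type and 37.8, 32.9 and 38.9 FPKM in mutant libraries, with all mutant values inside the wild-type range (log2 fold change -0.08, SE 0.13). Dnmt3a (ENSMUSG00000020661, chromosome 12, 3806007 to 3914443, plus strand) measured 11.9, 10.8 and 10.6 FPKM in wild type and 12.1, 10.3 and 8.94 FPKM in mutant libraries, with mutant replicates 1 and 3 as the highest and lowest of all 6 (log2 fold change -0.09, SE 0.12). On the FPKM scale Dnmt3b was therefore above Dnmt3a in 6 of 6 libraries. Dnmt1 made up 56.6% to 67.8% of the FPKM sum of the 3 enzymes, Dnmt3b 24.1% to 32.9% and Dnmt3a 6.02% to 10.5%. These shares differed between genotypes by -0.898, 0.616 and 0.282 percentage points, with no exact two-sided permutation p below 0.7. The smallest p that 3 against 3 libraries allow is 0.1, so this test cannot pass the threshold of 0.05.

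The Tet genes were all low and close to each other. Tet2 (ENSMUSG00000040943, chromosome 3, 133463679 to 133544390, minus strand), the family member most often mutated in blood clones, measured 4.82, 2.87 and 3.01 FPKM in wild type and 2.87, 3.14 and 2.69 FPKM in mutant libraries. Wild-type replicate 1 stood above the other 5, which did not separate by genotype, and the fold change rested on it. The log2 fold change was -0.29 (SE 0.21; edgeR unadjusted p = 0.200, adjusted p = 0.999), and -0.02 without that library. Tet1 (ENSMUSG00000047146, chromosome 10, 62804570 to 62899118, minus strand) measured 4.71, 2.50 and 3.81 FPKM in wild type and 3.86, 3.36 and 2.58 FPKM in mutant libraries, the groups overlapping over most of their range. Its log2 fold change of -0.17 (SE 0.23) became 0.05 without wild-type replicate 1. Tet3 (ENSMUSG00000034832, chromosome 6, 83362373 to 83459084, minus strand) measured 4.04, 3.03 and 3.79 FPKM in wild type and 2.94, 3.92 and 3.22 FPKM in mutant libraries (log2 fold change -0.10, SE 0.16). Each Tet gene held close to an equal part of the family sum, 29.8% to 39.9% for Tet1, 28.4% to 35.5% for Tet2 and 29.8% to 37.9% for Tet3 over the 6 libraries.

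Wild-type replicate 1 had the highest FPKM of all 6 libraries for Dnmt3b, Tet1, Tet2, Tet3, Asxl1 and Idh2. It was also the library with the lowest neutrophil marker sum, 31.5 FPKM, and one of the pair with Y-linked reads. With the median of the neutrophil markers, Pearson's r over the 6 libraries was -0.809 for Dnmt3a, -0.807 for Tet2, -0.791 for Asxl1 and -0.628 for Tet1 (exact permutation p of 0.0458, 0.0875, 0.0694 and 0.174; adjusted over the 20 relations 0.229, 0.25, 0.245 and 0.434). Their rho were -0.886, -0.486, -0.657 and -0.600. Without wild-type replicate 1 and mutant replicate 3, the libraries farthest from the median, r was -0.939 for Dnmt3a but 0.750 for Tet2, 0.310 for Asxl1 and 0.249 for Tet1, so the last 3 relations rest on those libraries. For the other 6 members r lay between -0.523 and 0.192. A covariate for Y-linked reads gave Tet2 a log2 fold change of -0.25 and left no member past the threshold.

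The Asxl genes gave the largest shift in relative level. Asxl1 (ENSMUSG00000042548, chromosome 2, 153345845 to 153404007, plus strand) measured 17.7, 13.3 and 15.1 FPKM in wild type and 14.1, 12.9 and 11.4 FPKM in mutant libraries. Mutant replicate 1 lay inside the wild-type range and the other 2 below it. The log2 fold change was -0.26 (SE 0.13; edgeR unadjusted p = 0.0833, adjusted p = 0.999), the smallest unadjusted p among the 10. Asxl2 (ENSMUSG00000037486, chromosome 12, 3426857 to 3506852, plus strand) measured 4.81, 4.60 and 4.91 FPKM in wild type and 5.23, 5.999 and 4.63 FPKM in mutant libraries, with 2 mutant libraries above all wild-type ones and 1 within them. Its log2 fold change was 0.15 (SE 0.12). Asxl1 made up 78.6%, 74.2% and 75.4% of the Asxl1 and Asxl2 sum in wild type and 73.0%, 68.3% and 71.1% in mutant libraries. The groups did not overlap, with a difference of -5.30 percentage points. The exact two-sided permutation p was 0.1, the smallest that 3 against 3 allows, and 0.8 adjusted over the 8 shares tested. Asxl3, the remaining paralog, was listed at 0 in 5 libraries and at 0.0188 FPKM in mutant replicate 1.

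**Figure D3:**
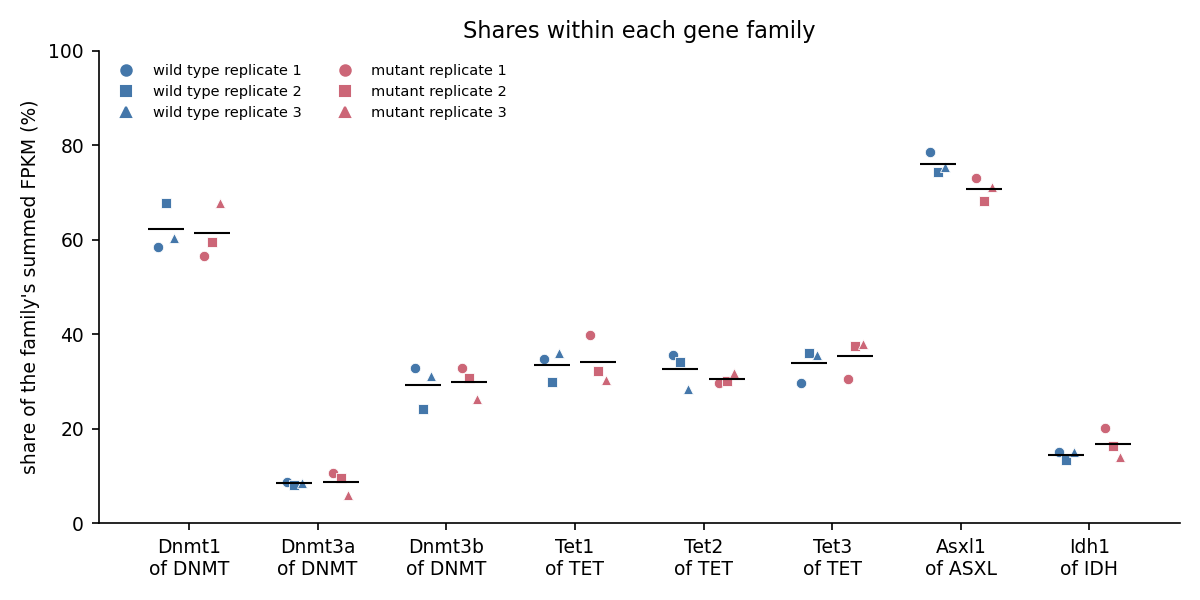
Share of each gene in the summed FPKM of its family (y axis, percent) in each library, with the mean per genotype as a bar; for Asxl and Idh the share of 1 gene is drawn, the other being the rest. Asxl1 is the only share drawn whose genotypes do not overlap, at 74.2% to 78.6% in wild type and 68.3% to 73.0% in the mutant.

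Idh2 was the most abundant of the 10 genes and varied least between libraries. Idh2 (ENSMUSG00000030541, chromosome 7, 80094846 to 80115392, minus strand) measured 214, 210.4 and 206 FPKM in wild type and 179, 185 and 204 FPKM in mutant libraries. All mutant libraries lay below all wild-type ones, though mutant replicate 3 only just. It was the 1 member of 10 whose groups did not overlap in FPKM; of all genes tested 10.3% did not overlap, 4.32% with the mutant lower. In counts per library size scaled by TMM (trimmed mean of M-values), the groups of Idh2 overlapped. Wild type averaged 210.2 ± 4.02 FPKM and the mutant 189 ± 12.9 FPKM (SD over 3 libraries each). The log2 fold change was -0.15 with an SE of 0.09 (edgeR unadjusted p = 0.129, adjusted p = 0.999), and the exact permutation p of the FPKM values was 0.1. Idh1 (ENSMUSG00000025950, chromosome 1, 65158616 to 65186500, minus strand) measured 37.8, 32.6 and 36.5 FPKM in wild type and 45.1, 36.1 and 33.1 FPKM in mutant libraries, only mutant replicate 1 lying outside the wild-type range. Its log2 fold change was 0.10 (SE 0.13), and -0.02 without mutant replicate 1. Idh1 lies on the chromosome of Ramp1 and starts 26.0 Mb away from it. Whether that place bears on its level was not tested. The Idh1 part of the Idh1 and Idh2 sum was 15.0%, 13.4% and 15.1% in the wild-type libraries, and 20.1%, 16.4% and 14.0% in those of the mutant, which overlapped (exact two-sided permutation p = 0.3).

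Across the 6 libraries the genes fell into an order of level that spanned from 199.7 FPKM for Idh2 to 3.23 FPKM for Tet2 on average. Idh2 was higher than 98.0% of the genes tested, Dnmt1 than 92.8%, and Tet2 than 31.7%. The order ran Idh2, Dnmt1, Dnmt3b, Idh1, Asxl1, Dnmt3a, Asxl2, Tet3, Tet1, Tet2. Of the 9 pairs of neighbours in it, 6 differed in the same direction in 6 of 6 libraries (exact two-sided sign-flip permutation p = 0.0312, the smallest possible; adjusted 0.0469). The pairs and their directions were taken from the mean FPKM of these same 6 libraries. The p-values therefore describe how steady the order was and are no independent test of it. The steps were 2.55-fold from Idh2 to Dnmt1, 2.09-fold from Dnmt1 to Dnmt3b and 2.63-fold from Idh1 to Asxl1. Below these, Asxl1 was 1.30-fold above Dnmt3a, Dnmt3a 2.14-fold above Asxl2 and Asxl2 1.45-fold above Tet3. Dnmt3b and Idh1, Tet3 and Tet1, and Tet1 and Tet2 did not differ beyond their spread, each pair being split 3 libraries to 3 (adjusted exact permutation p of 0.844, 0.844 and 0.482). These levels depend on the gene lengths the authors used, from 1790 bases for Idh2 to 14369 for Tet1.

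**Figure D4:**
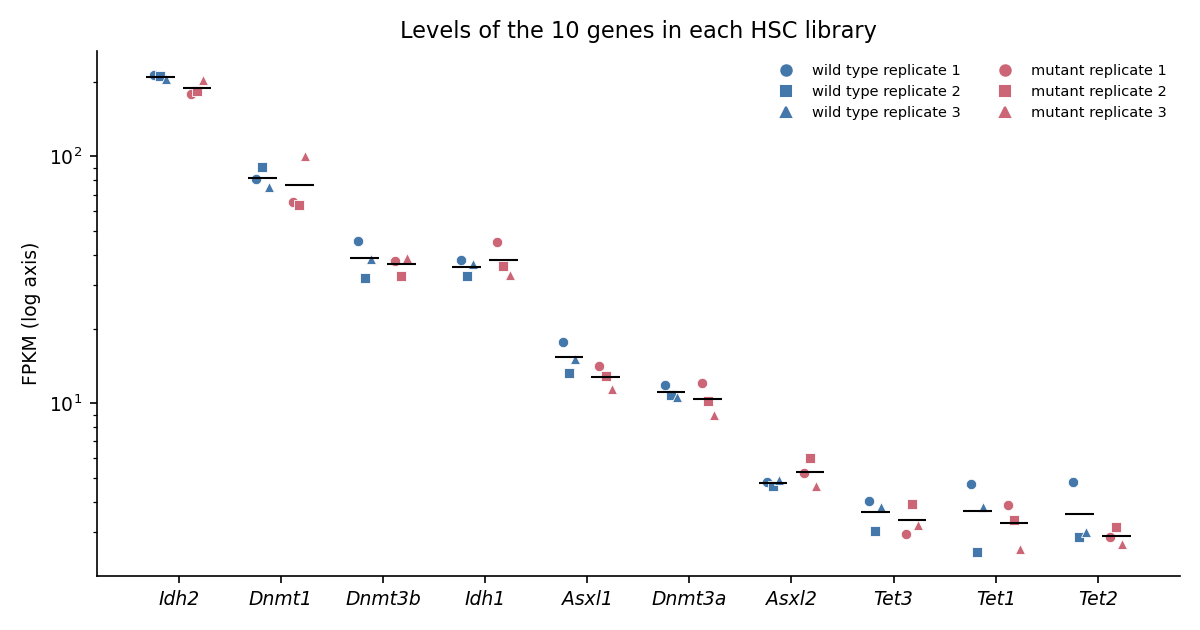
FPKM of the 10 genes (log axis) in each of the 6 libraries, ordered by mean, with the mean per genotype as a bar. The genotypes overlap for each gene but Idh2, and levels run from 214 FPKM for Idh2 to 2.50 FPKM for Tet1.

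Members on the same chromosome lay close to each other as pairs of an Asxl and a Dnmt3 gene. Asxl1 ends 245 kb before Dnmt3b on chromosome 2, with 2 tested genes between them, and Asxl2 ends 299 kb before Dnmt3a on chromosome 12, with 1 between. All 4 genes are on the plus strand. Over the 6 libraries the log2 CPM of Asxl1 and Dnmt3b had an r of 0.557 and that of Asxl2 and Dnmt3a an r of 0.05, given as descriptions. The highest r within the 10 genes were 0.841 for Tet1 with Asxl1 and 0.836 for Tet2 with Asxl1, and the lowest was -0.791 for Idh1 with Idh2. Wild-type replicate 1 is the highest library in Tet1, Tet2 and Asxl1, and these values share library and depth. The genes whose log2 CPM was most like Dnmt1, by Pearson's r over 6 libraries, were Rbbp7 (0.995), Tada1 (0.994) and Usp39 (0.994). For Dnmt3a they were Stat5a (0.992), Hmha1 (0.986) and Rpap2 (0.983), and for Tet2 Znrf2 (0.992), Zfp239 (0.990) and Zfp764 (0.963). With 6 points and 14443 genes searched, a high r alone singles out no gene.

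The wider pathway was read from 7 lists of partner genes, in which 108 of 112 genes, each counted once, were tested. None passed the adjusted threshold in the edgeR fit; 7 had an unadjusted p under 0.05, 1 higher and 6 lower in the mutant (of all genes tested, 3.99% did in either direction). DESeq2 called 2 of them, Foxk2 and D2hgdh, both lower, where it called 42 of all 14443 genes. Fitted values were higher for 46 and lower for 62, with a median log2 fold change of -0.02.

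Partners that maintain methylation had the lowest median, -0.20, with 11 of 12 tested genes lower in fitted value (49.9% of all genes tested were) and 0 past the threshold. They include Uhrf1, which brings Dnmt1 to newly copied DNA. It measured 74.5, 81.2 and 78.1 FPKM in wild type and 47.9, 59.2 and 102 FPKM in mutant libraries (log2 fold change -0.16, SE 0.25), with mutant replicates 1 and 2 again low and mutant replicate 3 high. Pcna, Hells and Cdca7 of the same list showed this pattern too, though others such as Trim28 did not. The 11 lower genes are thus not separate observations. S phase genes, several of which act beside Dnmt1 at the replication fork, had 22 of 24 lower in fitted value (median -0.18, 0 past the threshold). Usp7, a deubiquitinase that stabilises Dnmt1 and Uhrf1, measured 23.4, 13.0 and 12.1 FPKM in wild type and 10.3, 11.5 and 8.86 FPKM in mutant libraries; the groups did not overlap, wild-type replicate 1 lay far above the rest, and it did not pass (log2 fold change -0.66, SE 0.25; edgeR adjusted p = 0.999). Trim28, a corepressor that recruits methylation to silenced repeats, measured 75.9 to 79.9 FPKM in wild type and 65.5 to 72.7 FPKM in the mutant (log2 fold change -0.20, SE 0.08; edgeR adjusted p = 0.999). Cdca7l had a log2 fold change of -0.21 (SE 0.11). Dnmt3l, the catalytically inactive partner of Dnmt3a, was nearly absent, at 0.260 to 0.463 FPKM in wild type and at most 0.133 FPKM in mutant libraries.

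Among readers of methylated CpG, 6 of 10 were lower and 4 higher in fitted value, with none past the threshold. Mbd2, which recruits the NuRD repressor complex, measured 44.9, 39.6 and 8.35 FPKM in wild type and 7.59, 3.72 and 6.56 FPKM in mutant libraries. Only wild-type replicates 1 and 2 were high, and wild-type replicate 3 lay next to the mutant values (log2 fold change -2.39, SE 0.58; edgeR adjusted p = 0.986). For Mbd1 the fitted log2 fold change was -0.08 (SE 0.13). The list of demethylation genes and Tet partners had 6 higher and 7 lower of 13 tested. The genes with the smallest unadjusted p among those of at least 1 FPKM were Qser1 at -0.22 (SE 0.16), Cxxc1 at -0.12 (SE 0.11) and Gadd45b at -0.24 (SE 0.30).

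Partners of Asxl proteins in the H2A deubiquitinase complex had a median of -0.01, with 4 of 9 higher. Bap1, the enzyme itself, measured 58.0 to 65.1 FPKM in wild type and 58.7 to 60.9 FPKM in the mutant (log2 fold change -0.02, SE 0.08). Foxk2, a forkhead factor that binds Bap1, measured 9.68, 8.36 and 6.69 FPKM in wild type and 5.07, 3.35 and 2.60 FPKM in mutant libraries. Its groups did not overlap, and its call depended on the tool (log2 fold change -1.17, SE 0.25, edgeR adjusted p = 0.755; DESeq2 adjusted p = 0.0041). For Kdm1b the value was 0.14 (SE 0.17).

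Of 21 genes of 2-oxoglutarate and 2-hydroxyglutarate metabolism, 10 were higher and 11 lower in fitted value, by a median of -0.01. D2hgdh, which converts D-2-hydroxyglutarate back to 2-oxoglutarate, measured 11.8, 12.1 and 12.7 FPKM in wild type and 8.64, 7.30 and 6.05 FPKM in mutant libraries, without overlap (log2 fold change -0.74, SE 0.15; edgeR adjusted p = 0.668; DESeq2 adjusted p = 0.0091). It starts 2.65 Mb from Ramp1 on chromosome 1, and its place beside the mutated gene and the genotype cannot be told apart here. Idh3g, a subunit of the citric acid cycle's own isocitrate dehydrogenase, was at -0.11 (SE 0.10).

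The methionine cycle, which supplies the methyl donor, had 10 of 13 genes lower in fitted value (median -0.09), where 49.9% of all genes tested were. Mthfd2, Shmt1 and Shmt2 had mutant replicates 1 and 2 below all wild-type libraries and mutant replicate 3 above them, though others such as Mtr did not. The 10 lower genes are thus not separate observations. Mtap was at -0.13 (SE 0.10), Mtr at -0.19 (SE 0.15) and Ahcyl2 at 0.21 (SE 0.17). Other genes mutated in clonal haematopoiesis and myeloid neoplasms had 20 of 34 higher and a median of 0.01. Csf3r, the receptor for G-CSF, was measured at 35.1 to 38.4 FPKM in wild type and 39.3 to 53.9 FPKM in the mutant, without overlap and without passing the test (log2 fold change 0.29, SE 0.12; edgeR adjusted p = 0.999). Neutrophils express Csf3r, and the part of the neutrophil marker sums given above in its values was not tested. Chek2 had -0.25 (SE 0.14) and Brcc3 0.22 (SE 0.13).

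**Figure D5:**
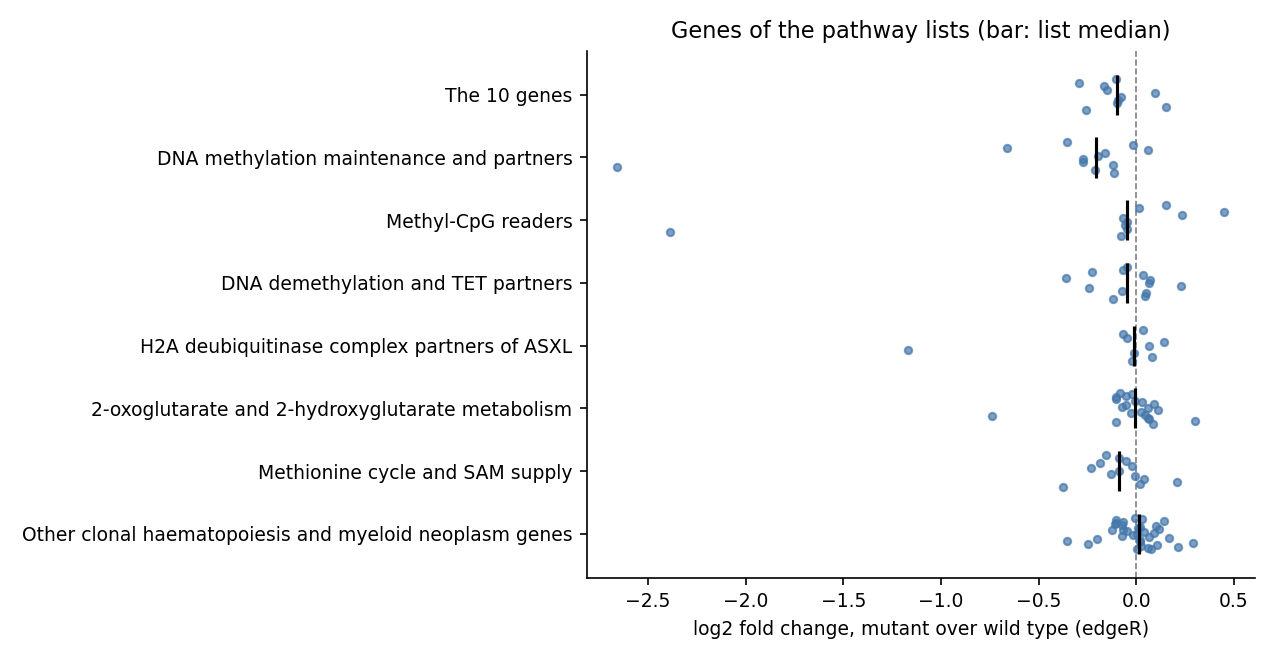
Log2 fold change, mutant over wild type, from the edgeR fit for each tested gene of the 10 members and the 7 partner lists (points), with the list median as a bar. Medians lie between -0.20 and 0.01, and the far points on the left are Dnmt3l at -2.66, Mbd2 at -2.39 and Foxk2 at -1.17.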

How the data were processed

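The authors deposited raw read counts per gene, their size-factor-normalized counts (a signal unit, not used here), FPKM, log2 fold changes and p-values, per the file headers. Tools listed in the submitters' processing notes, with no role or order, are STAR, DESeq2, HTSeq 0.6.1 and CASAVA, and the build is mm10; annotation release and strand setting are not given in the sources used here. Exons of Asxl1, Asxl2 and Dnmt3a overlap opposite-strand genes in GENCODE M21 (2.65%, 0.972% and 0.799% of their exon bases), so reads there cannot be assigned without strand. The deposited count table holds only genes with a read in mutant replicate 1 or 2, which touches no member.

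The members and lists were chosen with earlier results of these data known. edgeR 4.0.16 (R 4.3.3; TMM, filterByExpr, quasi-likelihood F test, Benjamini-Hochberg over 14443 genes, threshold 0.05, two-sided) gave the fold changes; the SE is the fold change over the square root of F, and intervals are 95%. Family shares and FPKM levels used exact permutation tests (20 group assignments; 64 sign patterns). limma 3.58.1, DESeq2 1.42.0, other scalings, filters and left-out libraries were alternatives. The edgeR script was tested on simulated data. All 10 members were named; of each partner list, genes past the threshold and otherwise the 3 with the smallest p and at least 1 FPKM, plus Uhrf1, Bap1, Dnmt3l and Asxl3, chosen after their values were seen; and the 3 genes of at least 5 FPKM most like Dnmt1, Dnmt3a and Tet2. A few genes chosen this way are not reported here. Of 204 list symbols, 2 were matched by identifier. Mbd5, Mbd6, Hcfc1 and Ogt stand in 2 partner lists, and Pcna in a partner list and among the S phase genes. Upstream sequences are RefSeq's, build GRCm38.p6; all 10 members matched.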

Additional observations from a re-analysis of the deposited data

How the results depend on the processing

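None of the 16 alternative settings of the fit called a member. Of 160 alternative fold changes of members, 154 kept their sign, and the 6 that turned came from leaving out 1 library. Over the left-out libraries the log2 fold change ran from -0.36 to 0.0209 for Dnmt1, from -0.18 to 0.0463 for Dnmt3b, from -0.37 to 0.0456 for Tet1, from -0.23 to 0.00047 for Tet3 and from -0.0237 to 0.18 for Idh1; the cause was not tested. Dnmt3a, Tet2, Asxl1, Asxl2 and Idh2 kept their direction, Tet2 between -0.41 and -0.02. Of all genes tested, 3 passed in the reported fit, 42 with DESeq2, and 2 to 6 with 1 library left out, the 6 without mutant replicate 2. Among partner genes DESeq2 called 2 where edgeR called 0. All 110 alternative values of the 17 family shares and level ratios, with 1 library left out or with CPM in place of FPKM for the shares, stayed within 1 SD of the reported value, the SD being pooled over both genotypes for the shares and taken over libraries for the ratios. For the left-out libraries this was fixed in advance, because dropping 1 library cannot move such means by 1 SD. It therefore says nothing about stability. Leaving out 1 library still turned the sign of 5 of the 8 share differences, which ran in percentage points from -4.13 to 1.89 for Dnmt1, -0.624 to 1.63 for Dnmt3a, -2.02 to 2.50 for Dnmt3b, -2.16 to 2.60 for Tet1 and -0.581 to 3.90 for Tet3. The Idh1 share difference ran from 0.656 to 3.73. With the replicate number as a block, 2 genes and 0 members passed. Same-numbered libraries had correlations of 0.138, 0.0018 and -0.0940 in their deviations from the group means, and not every library correlated best with its own number. With 3 libraries per group, these values cannot decide whether the numbers pair the samples. Replicate 1 of both genotypes shared the Y-linked reads, 6527 and 6137. Each member had 600 or more reads in each library.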
